A study of Mus musculus with 58 samples.

Results

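Somatostatin and 4 genes linked to the pancreatic delta cell, Hhex, Rbp4, Ptprz1 and Fam159b, were followed across single cells of the developing mouse pancreas. These 5 genes were taken by name from the 19699 gene rows of the deposited table, over the wells with at least 2000 transcripts and at least 500 genes, spike-ins left out. That left 4318 cells on 15 plates, of which 39 were Sst cells, defined here as cells in which Sst made up at least 0.5% of transcripts. They were set against 1755 other hormone cells, in which insulin (Ins1 plus Ins2), Gcg, Ppy or Ghrl reached 0.5% and Sst did not. These were 1102 insulin cells, 639 glucagon cells, 3 Ppy cells and 11 Ghrl cells, each named after its leading hormone.

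The cells came from pancreas dissected from embryos of pregnant mip-gfp mice, at 5 stages between E12.5 and E18.5, and the labels give no other treatment. In this reporter line the mouse insulin promoter drives GFP. MIP-GFP plates hold cells gated on GFP intensity, so the sort favours cells in which that promoter is active. Live plates hold cells picked without regard to GFP, and both sorts had excluded a viability dye. Each of 7 experiments gave a MIP-GFP and a live plate. Embryos of EP11 and EP18 were taken at E12.5. EP12 is the E13.5 experiment and EP14 the E14.5 one. Both EP10 and EP17 were done at E15.5, while EP16 covers E18.5. The labels do not say how many embryos or litters went into a plate, so the spread between experiments may be partly technical.

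Delta cells are the islet cells that secrete somatostatin, a peptide hormone that acts on neighbouring cells and restrains the release of both insulin and glucagon. They arise from the same Neurog3-expressing progenitors as alpha and beta cells and are a minority of the islet. In mice, the homeodomain factor Hhex is needed to keep delta cells in their state, and it is also used earlier in the foregut endoderm and in endothelial and blood lineages.

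On the GRCm38 assembly with GENCODE vM21, Sst lies at chr16:23889573-23890958 on the minus strand. Hhex lies at chr19:37434810-37440731 on the plus strand, and Rbp4, the carrier of retinol in blood, at chr19:38116629-38125281 on the minus strand. Ptprz1, a receptor-type tyrosine phosphatase best known from glia, lies at chr6:22875502-23052916 on the plus strand. Fam159b, a small membrane protein of the Shisa family now called Shisal2b, lies at chr13:104845283-104863893 on the minus strand. All are protein-coding genes, and none overlaps another annotated gene.

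The Sst promoter holds the cyclic AMP response element (CRE) for which somatostatin is a textbook gene, so that site is shown. The stretch is chr16:23890874-23890903 on the minus strand of GRCm38, from RefSeq, and the capitals mark the CRE, whose first base lies 48 bases upstream of the RefSeq start.
Sst: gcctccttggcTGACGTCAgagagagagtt
The motif TGACGTCA, which reads the same on both strands, was found in the 250 bases upstream of Sst and in none of those upstream of the other 4 genes. It was present in 508 of the 32851 RefSeq promoters of that length, or 1.55%.

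The plates held 129 to 362 cells and 1222637 to 9490716 transcripts each, with a median of 6919 to 27218 transcripts per cell. The labels and the contents of some plates do not match in 2 ways. The titles of the MIP-GFP libraries of EP11 and EP18 say E15.5 and those of EP16 say E14.5, whereas their stage characteristics say E12.5 and E18.5, which were used. A further E18.5 plate of EP16, labelled live, carries the plate code P6 that marks MIP-GFP plates in every experiment. Of its 301 cells, 296 were insulin cells, against 300 of 319 on the MIP-GFP plate and 23 of 278 on the other live plate of that experiment. It is called the P6-coded live plate below. On the MIP-GFP plates labelled E12.5, 277 of 349 cells in EP11 and 107 of 173 in EP18 were glucagon cells, and 2 on each were insulin cells.

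Sst cells were absent at E12.5 and rare at every later stage. None was found among 349 and 173 cells of the MIP-GFP plates or among 351 and 219 cells of the live plates at E12.5, which allows shares of up to 0.860%, 1.73%, 0.855% and 1.37%. At E13.5 there were 3 Sst cells among 362 MIP-GFP cells (0.829%, 95% Wilson interval 0.282 to 2.41) and none among 347 live cells. At E14.5 there were 5 among 335 MIP-GFP cells (1.49%, 0.639 to 3.45) and 1 among 319 live cells (0.313%, 0.0554 to 1.75). The earliest Sst cell of a live plate was thus found at E14.5.

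At E15.5, EP10 gave 10 Sst cells among 358 MIP-GFP cells (2.79%, 1.52 to 5.06) and none among 288 live cells. EP17, at the same stage, gave 3 among 190 MIP-GFP cells (1.58%, 0.538 to 4.54) and 2 among 129 live cells (1.55%, 0.426 to 5.48). At E18.5 there were 4 among 319 MIP-GFP cells (1.25%, 0.489 to 3.18), 10 among 278 cells of the live plate coded P4 (3.6%, 1.97 to 6.49) and 1 among the 301 cells of the P6-coded live plate (0.332%, 0.0587 to 1.86). The intervals cover counting error only.

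**Figure D1:**
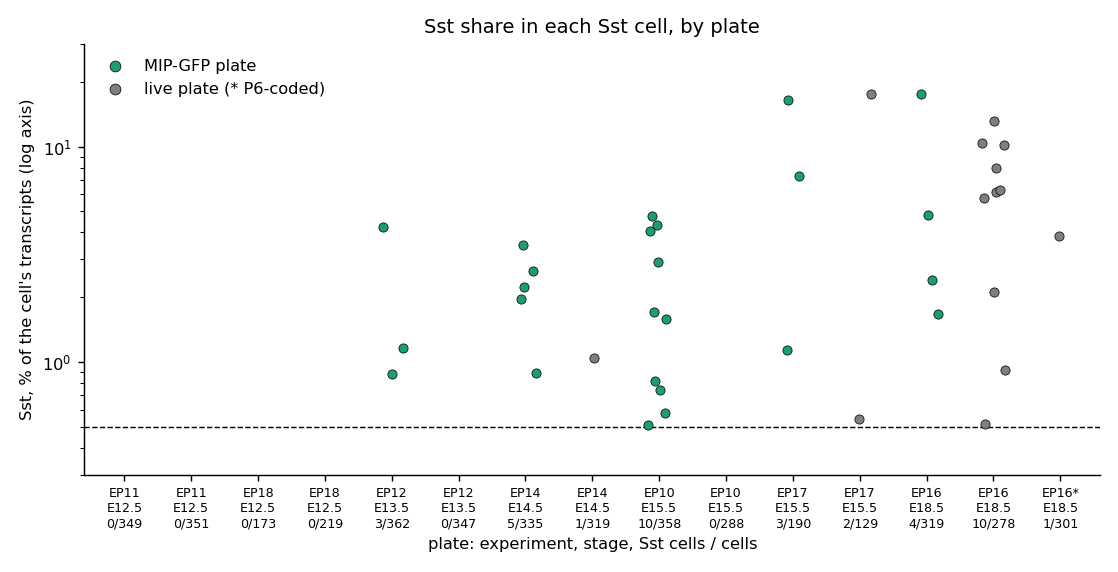
Sst as a percentage of the transcripts of each of the 39 Sst cells (log axis), by plate in order of stage, with MIP-GFP plates in green left of live plates in grey. The dashed line is the 0.5% threshold, and the labels give Sst cells over all cells; no point stands over the 4 plates of E12.5, and the E18.5 live plate coded P4 holds 10.

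Averaged over experiments, Sst cells were 1.14 ± 0.980% of MIP-GFP cells and 0.538 ± 0.825% of live cells (SD, n = 7 each). The difference of 0.598 percentage points did not pass an exact two-sided sign-flip permutation test over experiments (p = 0.1875, where 7 pairs allow no p under 0.0156). The share was higher on the MIP-GFP plate in 4 experiments and lower in 1. The value depended on which wells count. Without the P6-coded live plate, Sst cells were 0.780 ± 1.37% of live cells, and the difference was 0.355 points (exact permutation p = 0.5625). Over the cells kept in the authors' smaller table the difference was -0.341 points (exact permutation p = 0.8125). Among hormone cells alone, Sst cells were 1.26% of 318 on the E18.5 MIP-GFP plate (0.490 to 3.19), 24.4% of 41 on the E18.5 live plate coded P4 (13.8 to 39.3) and 0.332% of 301 on the P6-coded live plate (0.0587 to 1.86). On the plate coded P4, 3 of the Sst cells had only 19.7, 36.5 and 45.9 Sst transcripts, of 3840, 3970 and 2180 in all. Ptprz1 and Fam159b were not detected in them, and Hhex was in 1, with 1 transcript. The first of them had 9.35% Ghrl.

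Sst transcripts were found well beyond the Sst cells. Sst cells held 84.4% of all Sst transcripts and insulin cells 9.49%. In insulin cells, 57.4% had at least 1 Sst transcript at a median depth of 17061 transcripts, and in glucagon cells 16.4% did at 22648. The insulin cells of EP12 (E13.5) had 24.4 CPM (counts of the gene per 1e+06 transcripts of the summed cells), those of EP14 (E14.5) 39.6, those of EP10 and EP17 (E15.5) 89.0 and 105, and those of EP16 (E18.5) 181.

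Cells that should lack Sst also carried it, on most plates with Sst cells and on 2 without. On the E18.5 live plate coded P4, 61 of 135 collagen cells (those with at least 0.5% Col1a1, Col1a2 and Col3a1) had an Sst transcript, at 217 CPM and a plate median of 11724 transcripts per cell, as did 14 of 24 immune cells, at 225 CPM. On the live plates of E12.5, which held no Sst cell, none of 64 and 44 collagen cells did. On live plates of later stages without an Sst cell, 4 of 120 collagen cells of EP10 and 1 of 84 acinar cells of EP12 had a single transcript. At E18.5 insulin cells had 181 CPM of Sst and glucagon cells 173 CPM, in sums over all 3 plates, whereas the 135 collagen cells were all on the plate coded P4. How much of the Sst of insulin and glucagon cells is background was not tested, and it is not read as expression. In EP10 the insulin cells of both sorts had 89.0 CPM, and 1 of them held 77.7 of their 353 Sst transcripts. On the MIP-GFP plate of EP10 the 9 collagen cells had 17.8 CPM, the 2 acinar cells 42.9 CPM and the 4 immune cells 0 CPM. The differences were not tested.

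At E12.5 the MIP-GFP plates still held some Sst: 24 of 349 cells in EP11 and 5 of 173 in EP18 had a transcript, with at most 88.8 transcripts in a cell. None of the 36 and 57 immune cells of these plates had one. On the live plates of that stage 1 of 351 and 0 of 219 cells did.

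The 39 Sst cells ranged widely in how much of their RNA was Sst. The share ran from 0.511% to 17.6% with a median of 2.65%, over cells of 2180 to 38880 transcripts. In 2 cells Sst stood at 1597, the highest value that any gene reached in a well outside the P6-coded live plate, so their shares are lower bounds. Just outside the threshold lay 0.366%, 0.382%, 0.413%, 0.420% and 0.483%, and just inside it 0.511%, 0.514%, 0.543%, 0.576% and 0.737%. None of the 39 exceeded 5 times its plate's median depth.

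Sst was the leading hormone in 34 of the 39 cells. Insulin also reached 0.5% in 10, Ppy in 6, Ghrl in 1 and Gcg in none. Of these 10, 9 were among the 25 Sst cells of MIP-GFP plates. The 4 Sst cells of the E18.5 MIP-GFP plate had 1.59% to 14.6% insulin, and the 10 of the live plate coded P4 had 0.0108% to 0.467%. In the cells outside the hormone classes on that live plate, the median insulin share was 0.0375%. On the MIP-GFP plates of EP10, EP17 and EP16 it was 0.0452%, 0.423% and 0.350%, over 124, 3 and 1 such cells. The 3 Sst cells of the EP17 MIP-GFP plate had 0.525% to 1.02% insulin. The part of insulin from neighbouring cells or wells in these shares was not tested. Of the 39 cells, 2 also reached the collagen threshold and 1 the acinar enzyme threshold.

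The 4 companion genes were found together in most Sst cells. Rbp4 was detected in all 39, Hhex in 35, Fam159b in 29 and Ptprz1 in 28. All 4 were detected in 22 of the 39 and at least 3 in 34, or 87.2%. In insulin cells, with a like median depth, at least 3 were detected in 25 of 1102 (2.27%), and in glucagon cells in 1 of 639 (0.156%).

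Only 4 cells below the Sst threshold carried all 4 companions. In EP10, an insulin cell had 0.420% Sst with 18.7 Hhex transcripts, and a cell outside all named classes had 0.382% Sst with 16.5 Hhex transcripts. In EP14, a glucagon cell of 44186 transcripts had 49.5 Hhex and 325 Rbp4 transcripts beside 2 of Sst. The last was an insulin cell of EP14 with 1 Hhex transcript.

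Between Sst shares of 0.1% and 0.5% Hhex, Ptprz1 and Fam159b were found in fewer cells, and Rbp4 in most. Hhex was detected in 89.7% of Sst cells, against 21.9% of the 73 cells in that range and 11.6% of the 43 of these that were hormone cells. Over these 43 hormone cells Ptprz1 was detected in 9.30%, Fam159b in 34.9% and Rbp4 in 90.7%, where Sst cells had 71.8%, 74.4% and 100%. Thinned to 2000 transcripts per cell, so that depth is equal, Hhex was detected in 71.2% of Sst cells and in 12.01% of the cells of that range. The Sst threshold chose the first group, and the Sst shares of these groups are no result.

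Each gene had its own map over the other cell classes. Among the 12 classes with sums, all 5 had their highest mean in Sst cells, which for Sst follows from the threshold. Sums per experiment and class with at least 5 cells are given as mean CPM ± SD over experiments, with no test, since the cells were gated on related genes.

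Hhex had 889 ± 392 CPM in Sst cells (n = 4 experiments) and came next in epithelial cells, defined by Epcam, Cdh1, Krt8 and Krt18, with 179 ± 67.1 (n = 7). Endothelial cells had 112 ± 28.1 (n = 2), immune cells 73.4 ± 18.04 (n = 6), and cells with both Neurog3 and Fev, transcription factors of endocrine progenitors, 73.3 ± 106 (n = 5). The ranges of Sst and epithelial cells did not overlap (513 to 1344 and 130.2 to 318 CPM), whereas from epithelial cells down neighbouring classes overlapped. Insulin and glucagon cells were near the bottom, with 25 of 1102 and 22 of 639 cells holding a transcript. Of all Hhex transcripts, 16.4% were in Sst cells and 34.5% in epithelial cells.

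Rbp4 had 9125 ± 3542 CPM in Sst cells (n = 4). Glucagon cells followed with 3179.6 ± 1137 (n = 7), Fev cells with 2461 ± 1263 (n = 5), insulin cells with 1721 ± 543 (n = 5) and cells with Neurog3 and Fev with 989 ± 420.3 (n = 5). The lowest Sst sum, 4192 CPM at E18.5, lay within the range of glucagon cells, which reached 4884 at E12.5, so these ranges overlap across stages. Rbp4 was in 99.7% of glucagon cells and 95% of insulin cells, and glucagon cells held 49.4% of all its transcripts. It was thus a gene of all hormone classes, and most of it lay outside Sst cells.

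Ptprz1 had 234 ± 71.5 CPM in Sst cells (n = 4), against 21.9 ± 20.0 in cells outside all named classes (n = 5) and 11.1 ± 8.01 in insulin cells (n = 5). Pooled over all experiments, the 39 Sst cells had 271 CPM and the 10 glial cells, too few for sums, had 309 CPM, with a transcript in 9 of the glial cells. Below Sst cells, the next classes overlapped one another. Within insulin cells, Ptprz1 stood at 18 CPM in EP12 (E13.5), 19.7 in EP14 (E14.5), 11.1 and 5.83 in EP10 and EP17 (E15.5) and 0.735 in EP16 (E18.5).

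Fam159b had 342 ± 216 CPM in Sst cells (n = 4). Cells with Neurog3 and Fev had 90.1 ± 156 (n = 5), a mean that rests on 1 sum of 368 CPM from 6 cells, and insulin cells 35.2 ± 25.1 (n = 5). Sst cells held 15.4% of all Fam159b transcripts and insulin cells 64.8%, and 7 of 639 glucagon cells had any. Pooled over all experiments, the 39 Sst cells had 394 CPM and the 3 Ppy cells, all with a transcript, had 430.4 CPM. Within insulin cells, Fam159b stood at 22.7 CPM in EP12, 15.9 in EP14, 23.4 and 36.0 in EP10 and EP17, and 78.2 in EP16, where Ptprz1 was at its lowest.

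**Figure D2:**
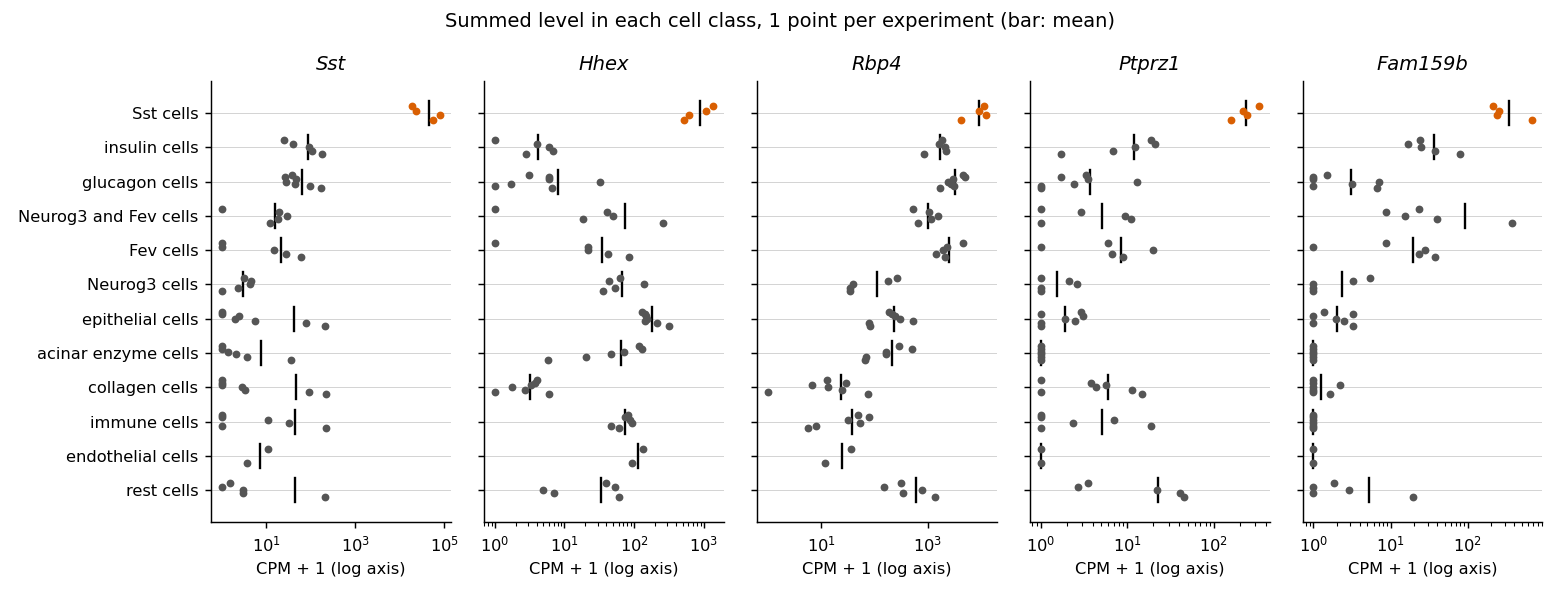
Level of each gene (CPM plus 1, log axis) in 12 cell classes, with 1 point for each experiment whose class holds at least 5 cells and a bar at the mean; Sst cells are the top row, in orange. Sst cells have the highest mean of the classes drawn for every gene, and the next class differs: epithelial cells for Hhex (179 CPM), glucagon cells for Rbp4 (3179.6 CPM) and cells with Neurog3 and Fev for Fam159b (90.1 CPM).

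Sst cells were then compared with the other hormone cells of the same experiments, in the 4 experiments with at least 5 Sst cells (EP14, EP10, EP17 and EP16, with 6, 10, 5 and 15). The sums ran over all plates of an experiment, so class is mixed with plate and sort. In EP16, 10 of the 15 Sst cells were on the live plate coded P4, with 23 insulin and 7 glucagon cells. The MIP-GFP plate and the P6-coded live plate of EP16 held 300 and 296 insulin cells. Counts were summed per experiment and class and tested with edgeR's quasi-likelihood test with the experiment as a block and Benjamini-Hochberg adjustment over all genes. All 4 companion genes were higher in Sst cells against the other hormone cells, where 6.56% of 10341 genes passed in either direction. They were also all higher against glucagon cells, where 10.0% of 6150 genes passed, and against insulin cells, where 8.50% of 9840 did.

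Hhex had 1344 CPM in the Sst cells of EP14, 1083 in EP10, 614 in EP17 and 513 in EP16. The other hormone cells of the same experiments had 14.9, 3.80, 13.4 and 1.95 CPM. The groups were far apart in every experiment, and the log2 fold change was 6.95 ± 0.25 (SE). Of the 60 Hhex transcripts in the other hormone cells of EP14, 53 were in glucagon cells, 49.5 of them in the glucagon cell with all 4 companions described above.

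Rbp4 had 11173, 8993, 12141 and 4192 CPM in the Sst cells of EP14, EP10, EP17 and EP16, against 1966, 2304, 2362 and 870.4 CPM in the other hormone cells. It was higher in Sst cells in each experiment, and lowest in both groups at E18.5. The log2 fold change was 2.11 ± 0.17 against all other hormone cells, 1.80 ± 0.20 against glucagon cells and 2.25 ± 0.17 against insulin cells.

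Ptprz1 had 327, 215, 238 and 155 CPM in the Sst cells of EP14, EP10, EP17 and EP16, against 16.3, 8.71, 4.95 and 0.708 CPM in the other hormone cells. The groups did not overlap, and the log2 fold change was 5.10 ± 0.30. Against glucagon cells it was 5.55 ± 0.38 and against insulin cells 4.87 ± 0.30.

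Fam159b had 210.3, 255, 239 and 666 CPM in the Sst cells of EP14, EP10, EP17 and EP16, against 11.9, 17.8, 33.3 and 77.4 CPM in the other hormone cells. Both groups were highest at E18.5, and the groups did not overlap. The log2 fold change was 3.34 ± 0.22 against all other hormone cells, 6.03 ± 0.32 against glucagon cells and 3.12 ± 0.22 against insulin cells. The glucagon cells compared held only 15 Fam159b transcripts, and the limit this sets is given below.

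**Figure D3:**
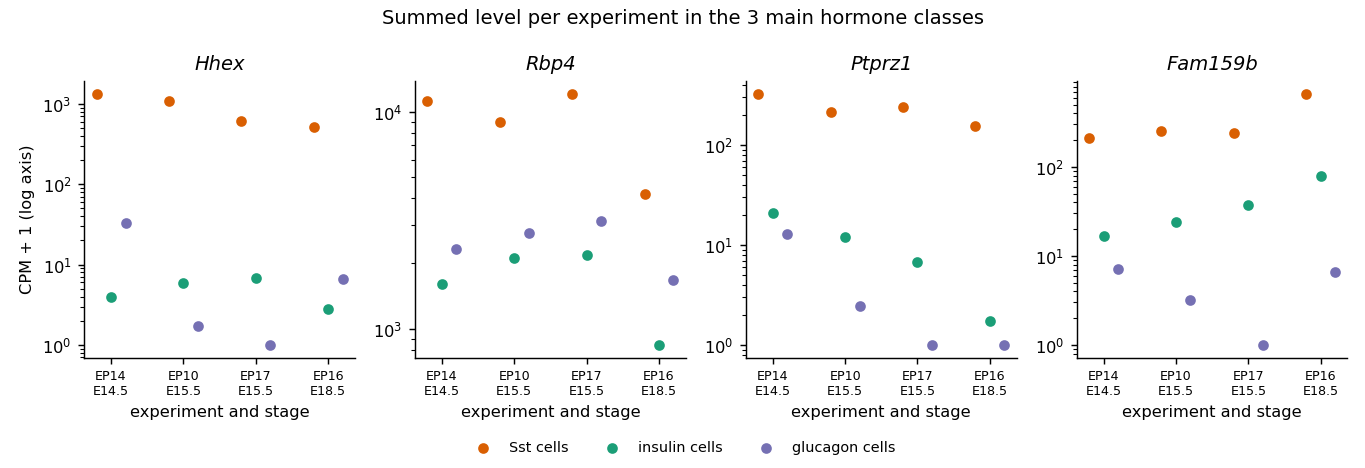
Summed level (CPM plus 1, log axis) of the 4 companion genes in Sst cells (orange), insulin cells (green) and glucagon cells (purple), by experiment in order of stage. Sst cells are on top in all 4 experiments for each gene; for Fam159b insulin cells lie between, and for Rbp4 glucagon cells do.

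The adjusted p-values of these 4 genes from edgeR lay between 9.04e-166 and 2.27e-31 against the other hormone cells. They rest on a spread pooled over all genes, with 3 residual degrees of freedom among the sums. The classes were gated on related genes. Hhex and Ptprz1 were scarce in the other hormone cells, as was Fam159b in glucagon cells. There the filter on low counts can be passed through the Sst sums alone. It partly sets the direction of these genes, and their p-values are a description. Across the 15 alternative settings for each comparison (other thresholds, cell sets, tools and experiments left out), all 4 genes kept their direction and adjusted p under 0.05. The highest adjusted p was 0.0151, for Fam159b against the other hormone cells. The alternatives that use the filter share its limit.

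Of the 21 genes linked to delta cells in the literature, the 4 companions among them, 17 passed the filter on low counts against the other hormone cells. Of these, 11 were higher in Sst cells and 1 was lower, where 2.98% of all genes tested were higher and 3.58% lower. The median log2 fold change was 2.11, beside -0.07 over all genes tested. The filter can be passed through the Sst sums alone. For genes near 0 in the other cells, the direction is partly set by it and the count is a description. The companions Hhex and Ptprz1 are among these genes in some classes. Against glucagon cells Fam159b, Frzb, Spock3 and Ehf are too, with 15, 6, 2 and 2 transcripts in the glucagon cells compared. Against insulin cells 11 of 17 were higher and none lower, where 3.86% of all genes were higher and 4.63% lower. Against glucagon cells 10 of 15 were higher and 1 lower, where 5.14% of all genes were higher and 4.86% lower. Leaving out the P6-coded live plate gave 12 higher against the other hormone cells.

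Spock3, a secreted proteoglycan, had 59.5 to 239.6 CPM in Sst cells and 1.65 to 4.93 CPM in the other hormone cells. Its log2 fold change was 5.31 ± 0.52 (edgeR adjusted p = 5.42e-22). Ehf, an ETS transcription factor, was higher by 4.54 ± 0.81 (1.47e-06), from 27 transcripts in all Sst cells. The filter on low counts can be passed through the Sst sums alone. The direction of Spock3 was set by it in this comparison too, and both p-values are a description.

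Frzb, a secreted antagonist of Wnt signals, had 138 to 435 CPM in Sst cells and 0.732 to 3.86 CPM in glucagon cells (7.01 ± 0.41). There its direction was set by the filter on low counts. Against insulin cells its log2 fold change was 0.38 ± 0.22 (edgeR adjusted p = 0.354). Crhr2, the receptor of urocortins, behaved alike, at 1.89 ± 0.61 against glucagon cells (adjusted p = 0.0470) and 0.35 ± 0.39 against insulin cells (0.736). The difference between these comparisons was not tested. Isl1, a LIM homeodomain factor, was higher against insulin cells (0.94 ± 0.18) and had 0.07 ± 0.20 against glucagon cells. Edn3, the peptide endothelin 3, went against the list: the Sst cells compared held 3 transcripts, against 970 in glucagon cells. The ratio of the pooled levels, 5.16 to 264 CPM, was 0.0195 (95% exact counting interval 0.00402 to 0.0572). This interval and that of Rsad2 below cover counting error only, over counts pooled across experiments, and hold no spread between experiments. The receptor genes Lepr, Sstr3, Crhr2 and Ffar4 and the factor Pdx1 did not pass against the other hormone cells, and 4 further genes of the list were too low to be tested.

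**Figure D4:**
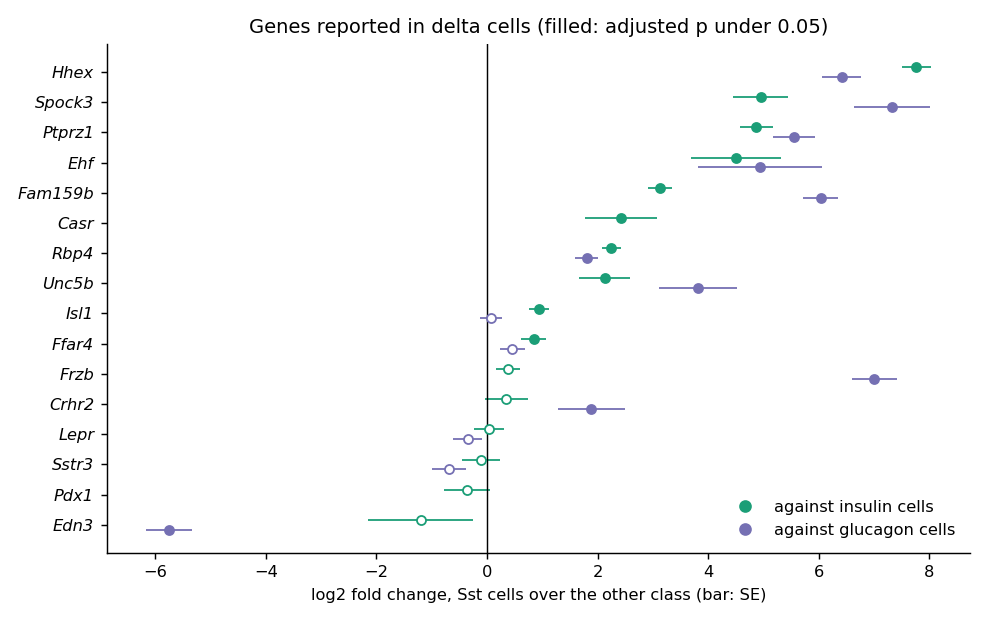
Log2 fold change ± SE of tested genes of the delta list in Sst cells over insulin cells (green) and over glucagon cells (purple); filled points have an edgeR adjusted p under 0.05. Hhex, Spock3, Ptprz1, Ehf and Fam159b lie far to the right in both, Frzb only over glucagon cells (7.01 against 0.38), and Edn3 lies far to the left over glucagon cells (-5.75).

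Genes that mark alpha cells were low in Sst cells. Of 13 tested against glucagon cells 11 were lower and none higher, with a median log2 fold change of -2.95 beside -0.03 over all genes. In that comparison 4.86% of all genes were lower and 5.14% higher. Irx1 and Irx2, Iroquois factors of alpha cells, differed by -5.38 ± 0.37 and -4.97 ± 0.31. Against insulin cells 6 of 13 were lower and Etv1, an ETS factor, was higher (2.57 ± 0.29). There 4.63% of all genes were lower and 3.86% higher.

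Genes that mark beta cells were low against insulin cells, where 11 of 12 were lower and none higher, with a median of -2.13 beside -0.04 over all genes. In that comparison 4.63% of all genes were lower and 3.86% higher. G6pc2, a glucose-6-phosphatase of islets, differed by -3.25 ± 0.26, and Nkx6-1, a beta cell homeodomain factor, by -1.88 ± 0.25. Against glucagon cells 4 of 9 were higher and 2 lower, where 5.14% of all genes were higher and 4.86% lower. The higher ones were Nnat, an imprinted gene (2.42 ± 0.26), the glucose transporter gene Slc2a2 (3.06 ± 0.56), Sytl4, a granule protein gene (2.73 ± 0.38), and Adra2a, an adrenergic receptor gene (3.09 ± 0.41). Slc2a2 and Adra2a were higher in 3 of 4 experiments. The insulin counts of Sst cells given above lie beside these values, and their part in them was not tested.

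Several general endocrine genes were also lower in Sst cells. Of 17 genes for granules and hormone processing, 9 were lower against the other hormone cells and none higher, with a median of -0.67. Over all genes tested in that comparison 3.58% were lower and 2.98% higher, with a median of -0.07. On MIP-GFP plates alone 5 were lower and 1 higher, but only EP14 and EP10 had at least 5 Sst cells there, so E18.5 is left out. Chga, which encodes the granule protein chromogranin A, had 506 to 1366 CPM in Sst cells against 1491 to 5406 CPM (-1.82 ± 0.18). Against glucagon cells, Pcsk1, a prohormone convertase, and Scg2, a granin, were higher (1.10 ± 0.21 and 1.91 ± 0.18) while 6 were lower. In that comparison 5.14% of all genes were higher and 4.86% lower.

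Among 18 endocrine transcription factors tested, Hhex, Isl1 and Neurog3 were higher against the other hormone cells and 6 were lower. Over all genes tested there, 2.98% were higher and 3.58% lower. Neurog3, the progenitor factor, had 34.7 to 88.1 CPM in Sst cells, against 11.5 to 74.8 CPM in the other hormone cells (1.18 ± 0.36, edgeR adjusted p = 0.0229), and was higher in 3 of 4 experiments. Neurod1, Nkx2-2, Nkx6-1 and Fev were among the lower ones. Of the partners of Ptprz1, Mdk, which encodes the ligand midkine, was higher against insulin cells (1.43 ± 0.23). Of the somatostatin receptor genes, 2 passed the filter against the other hormone cells and neither passed the test. Of the retinol genes, Rbp4 was higher and Ttr, which encodes the plasma partner of Rbp4, was lower (-1.76 ± 0.18).

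The genes with the largest changes of the same sign in all 4 experiments hold further names. Higher against the other hormone cells, after Hhex, were Spock3, Magee2, Ptpro, Ptprz1, Ppp1r17, Ltbp1, Slit2, Olfml3 and Nrsn1, with log2 fold changes of 4.70 to 5.31. Of these Magee2, Ltbp1, the axon guidance ligand gene Slit2 and the receptor tyrosine phosphatase gene Ptpro rest on 11, 12, 13 and 15 transcripts in all Sst cells compared. Genes this scarce in the other hormone cells could pass the filter on low counts only through the Sst sums, so their direction was set by the filter and these names are a description. Against insulin cells Arg1, the gene of arginase 1, had 493.2 to 1154 CPM in Sst cells and 3.59 to 18.8 CPM in insulin cells (5.71 ± 0.24). Mest, an imprinted gene, had 449 to 560.4 CPM in Sst cells and 3.86 to 22.7 CPM in insulin cells (5.06 ± 0.23). The other 8 of that set were Hhex, Dtna, Nrsn1, Ptpro, Tspan12, Ltbp1, Olfml3 and Acot7. The limit set by the filter holds for those near 0 in insulin cells. Against glucagon cells Cd24a, a surface glycoprotein gene, had 1729 to 2943 CPM in Sst cells and 16.8 to 70.8 CPM in glucagon cells (5.60 ± 0.22). The rest of that set were Spock3, Frzb, Hhex, Fam159b, Ptprz1, Ppp1r17, Ehf, Olfml3 and Ptpro. They had 2 to 56 transcripts in the glucagon cells compared, and the same limit holds for the scarcest.

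On the lower side, many of the leading genes were not seen in Sst cells at all. Against the other hormone cells these were Mctp2, Shisa2, Skap1, Zfyve26, Atp4a, Gm9199 and Adcy1. With 3 transcripts over all Sst cells as the floor, Mctp2 was at least 3.85-fold lower and the other 6 at least 1.77-fold to 2.98-fold lower. Bace2, a secretase, had 0 to 12.52 CPM in Sst cells and 68.1 to 130.1 CPM in the other hormone cells (-4.11 ± 0.49), and Rsad2, an interferon-induced gene, had 1 transcript in Sst cells and 1187 in the other hormone cells, a ratio of pooled levels of 0.0328 (95% exact counting interval 0.000831 to 0.183). Against glucagon cells Mctp2 was at least 17.4-fold lower, and Edn3, Irx1, Irx2, Ctxn2, Dock11, Cartpt, Upp1 and Elmod1 were also in the set. Against insulin cells the set was Shisa2, Skap1, Syt4, Adam32, Rsad2, Bace2, C2cd4a, Npy, Rcan2 and Nqo1. Npy, the gene of neuropeptide Y, had 50.2 to 180.3 CPM in Sst cells and 499 to 2258 CPM in insulin cells.

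Markers of other cell types varied between the Sst sums, and some reached higher shares than in the other hormone classes. The 3 collagen genes made up 0% to 0.153% of the transcripts of Sst cells per experiment, against 0.000546% to 0.00858% in insulin cells and 0.00625% to 0.0273% in glucagon cells. The 12 acinar enzyme genes made up 0.00559% to 0.960% in Sst cells, against 0.00701% to 0.0265% in insulin cells and 0.00965% to 0.0403% in glucagon cells. The 4 neuronal markers made up 0.00816% to 0.0159% in Sst cells, against 0.00246% to 0.00534% in insulin cells and 0.00347% to 0.00892% in glucagon cells, with 3 of the 4 at 0 in Sst cells. The part of these cells in the comparisons was not tested. In Sst cells 2 of the 12 acinar, 4 of the 6 immune and 3 of the 5 endothelial markers were at 0.

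The sorts were compared over all cells of a plate. A sum over a plate does not tell more cells of a type from more RNA per cell, so shares of cells with a transcript, thinned to 2000 transcripts per cell, are given too. In the sums, edgeR with stage as a factor called 42.6% of 14773 genes between MIP-GFP and live cells, and 3 of the 5 genes were among them.

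Rbp4 had 909.5 to 4022 CPM in the MIP-GFP sums and 161 to 676 CPM in the live sums. The groups did not overlap in 7 experiments each, and the log2 fold change was 2.53 ± 0.43 (edgeR adjusted p = 0.000674). A transcript was found in 75.5 ± 10.8% of MIP-GFP cells and 21.1 ± 10.4% of live cells (SD, n = 7), higher in all 7 experiments (exact permutation p = 0.0156, the smallest possible, and 0.0260 adjusted over the 5 genes).

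Hhex ran the other way, with 7.07 to 56.1 CPM in MIP-GFP sums and 28.4 to 86.1 CPM in live sums. Its log2 fold change was -1.24 ± 0.42 (edgeR adjusted p = 0.0322). A transcript was found in 3.69 ± 1.89% of MIP-GFP cells and 8.55 ± 3.35% of live cells, lower in all 7 experiments (adjusted exact permutation p = 0.0260). Counting only cells with at least 2 Hhex transcripts after thinning, the shares were 1.18 ± 1.06% of MIP-GFP cells and 1.76 ± 0.719% of live cells, lower in 5 experiments and higher in 2 (adjusted exact permutation p = 0.527), so that call was lost. The call in the sums was lost with the stages of the titles (-0.78, edgeR adjusted p = 0.253) and on leaving out EP11, EP12, EP16, EP17 or EP18 (adjusted p 0.0537 to 0.0872). Epithelial cells, which hold the largest share of Hhex, numbered 0 to 7 on MIP-GFP plates, against 17 to 91 on live plates other than the P6-coded one, and their part in the difference was not tested.

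Fam159b had 0 to 75.8 CPM in MIP-GFP sums and 0.894 to 69.8 CPM in live sums, with a log2 fold change of 2.25 ± 0.66 (edgeR adjusted p = 0.0163). This call was lost on leaving out EP10, EP12, EP14 or EP17 (0.0520 to 0.0629). Its share of cells with a transcript was 4.26 ± 4.48% in MIP-GFP cells and 1.45 ± 3.20% in live cells (adjusted exact permutation p = 0.0586).

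Sst had 17.4, 31.1, 229, 363, 623, 1100 and 958 CPM in the MIP-GFP sums of EP18, EP11, EP12, EP14, EP10, EP17 and EP16. In the live sums of the same experiments it had 0, 0.250, 7.66, 48.9, 3.77, 1103 and 985 CPM. The MIP-GFP sum was higher in 5 experiments, and at EP17 and EP16 the live sum was close to it. The live sum of EP16 joined unlike plates, with 2132 CPM on the plate coded P4 and 315 CPM on the P6-coded live plate. The log2 fold change of 2.37 ± 1.14 was not called without a block (edgeR adjusted p = 0.115) and was called with the experiment as a block (3.42, adjusted p = 0.0249). It was also called on leaving out EP10 (0.0387) or EP17 (0.00692). The thinned share of cells with an Sst transcript was 11.02 ± 11.8% in MIP-GFP cells and 5.30 ± 9.80% in live cells, higher in all 7 experiments (adjusted exact permutation p = 0.0260). That share includes the background described above.

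Ptprz1 did not separate the sorts, with 0.993 to 17.0 CPM in MIP-GFP sums and 0.892 to 10.2 CPM in live sums (0.19 ± 0.40, edgeR adjusted p = 0.738). Without EP14 the value was -0.04.

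**Figure D5:**
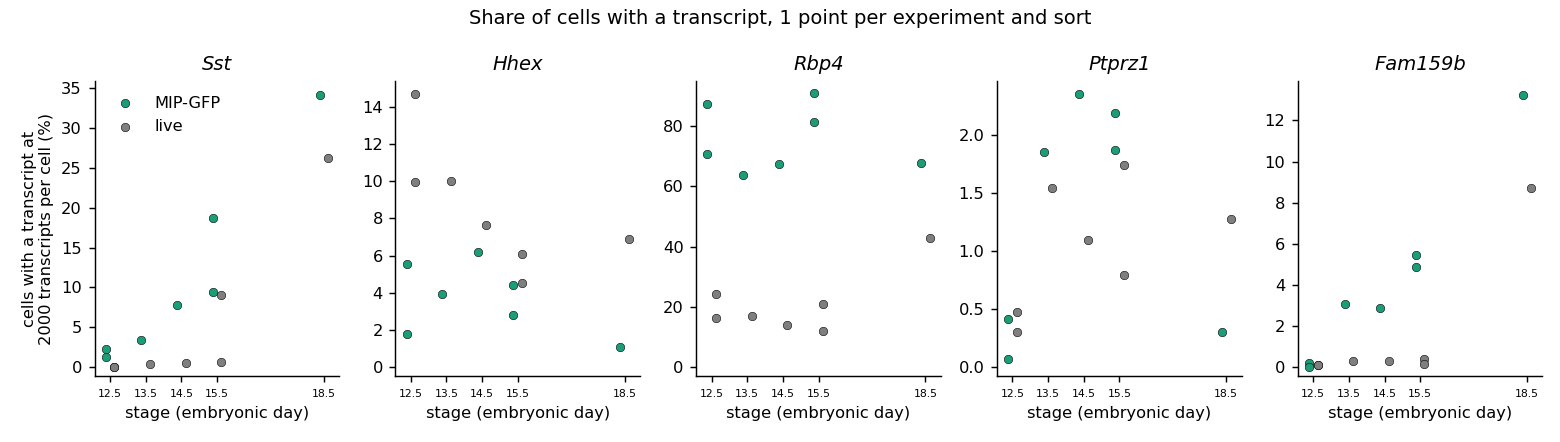
Percentage of cells with at least 1 transcript after thinning to 2000 transcripts per cell, by stage, with 1 point per experiment in MIP-GFP cells (green, left) and live cells (grey). Rbp4 is higher and Hhex lower in MIP-GFP cells in all 7 experiments, and Sst and Fam159b are highest in both sorts at E18.5.

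The slopes over the stages were called for Fam159b in live cells and, less stably, for Sst and Fam159b in MIP-GFP cells. In the live sums edgeR called 5.04% of 14110 genes for a linear slope per day, and Fam159b was called, at 1.10 ± 0.12 log2 units per day (adjusted p = 0.00175). Its live sums were 0.894 to 3.17 CPM up to E15.5 and 69.8 at E18.5, where the P6-coded live plate had 81.3 CPM and the plate coded P4 50.3. Without the P6-coded plate it was still called (adjusted p = 0.00905), and without EP16 it was too low to be tested. Sst had a slope of 2.60 ± 0.80 in live cells and was not called (adjusted p = 0.1), though without EP17 it was (1.55, 0.00960), as it was with DESeq2 (3.13, adjusted p = 3.55e-07).

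In the MIP-GFP sums 11.8% of 13515 genes were called for a slope. Sst was called at 1.03 ± 0.27 per day (edgeR adjusted p = 0.0461) and Fam159b at 0.87 ± 0.23 (0.0440). Both calls rest on the stage characteristic: with the stages of the titles the slopes were 0.16 and -0.61 and no gene of the table was called, with 218 genes at an unadjusted p under 0.05. They were also lost on leaving out EP10, EP11, EP14, EP17 or EP18, for Sst also EP12 and for Fam159b also EP16 (adjusted p 0.0545 to 0.128 over both genes). Hhex, Rbp4 and Ptprz1 had no slope called by edgeR over all cells in either sort. Rbp4 in MIP-GFP cells, at -0.24 per day (edgeR adjusted p = 0.102), was called with DESeq2 (-0.24, adjusted p = 0.0219) and over the authors' cells (-0.30, edgeR adjusted p = 0.0473). A test of the difference of the slopes between sorts called 0.196% of 14773 genes and none of the 5.

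The genes most like each member, by Pearson's r of log2(CPM + 10) over 64 sums of experiment and class, are given as a description. The sums share plates and depth, and 10333 genes were compared. Nearest to Sst were Kcnc2 (r = 0.856), a potassium channel gene, Nrsn1 (0.834) and Stk32a (0.808). Ptprz1 was nearest to Kcnc2 (0.882), Lmo3 (0.834) and Kctd8 (0.826), with Sst itself next (0.788). Fam159b was nearest to Sez6l (0.845), Ngb (0.823) and Frzb (0.818). Rbp4 was nearest to Ffar4 (0.935), a fatty acid receptor gene, and to Abcc8 (0.928), a subunit of the islet potassium channel. Hhex had no gene above 0.623, reached by Exoc6, its neighbour on chromosome 19 at a distance of 109687 bases. Among the members, Sst had r = 0.788 with Ptprz1, 0.747 with Fam159b, 0.496 with Rbp4 and 0.433 with Hhex.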

How the data were processed

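The table used holds expected counts, that is UMI counts per gene and well that the authors had corrected for UMI collisions before they were deposited. The values show this, with steps near 1 and a highest value of 1597 outside the P6-coded live plate. Libraries were made by SORT-seq and sequenced on a NextSeq500, per the labels' protocols. The submitters' processing notes name BWA, Seurat and mm10 without roles, and annotation, strand and filters are not given in the sources used here. Of the columns, 5760 were matched to plates and 1536 matched no sample and were not used. Libraries with no experiment number in the labels were not analysed here.

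Wells with at least 2000 transcripts and 500 genes were kept, without the 89 spike-in rows. No doublet caller was run. Classes are gates on marker shares, not clusters: 0.5% of transcripts for hormones, collagens and acinar enzymes, and 0.1% for epithelial, immune, endothelial and glial markers. Neurog3 and Fev cells have at least 2 transcripts. Expected counts were summed per experiment and class (at least 5 cells) or sort, rounded and tested with edgeR 4.0.16 (TMM, filterByExpr, quasi-likelihood, Benjamini-Hochberg at 0.05) in R 4.3.3, with DESeq2 1.42.0 as an alternative. Class comparisons had the experiment as a block, and the sort comparison had stage as a factor. The SE of an edgeR log2 fold change is its absolute value over the square root of the quasi-likelihood F statistic. It is not a direct spread between experiments. Shares were compared by an exact two-sided sign-flip permutation test over experiments, with Wilson intervals at 95% (Python 3.11.15, SciPy 1.17.1, NumPy 2.4.6, pandas 2.3.3, Matplotlib 3.10.9). A count of 0 is given a limit of 3 counts. Levels in CPM were computed from the unrounded sums. The fits were tested on simulated data.

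The plates of 1 experiment number were checked for pairing: deviations of MIP-GFP and live sums from their stage means correlated with r = 0.518 at E12.5 and r = 0.364 at E15.5 over 10012 genes, the stages with 2 experiments, so the numbers were taken to pair the sorts. The 5 genes, the lists and the tests were chosen with earlier results of these data known. Genes named beside the lists are the 10 with the largest positive and negative log2 fold changes among those called with 1 sign in every experiment; list members were chosen by smallest p, or because they went against their list, and some after their values were seen. Some genes of the lists are counted but not reported by name here. Alternatives covered the gates, cells, tools, filter, stage label and each experiment left out.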

Additional observations from a re-analysis of the deposited data

Results flagged for a closer look

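Of 30 groups of 4 to 10 sums checked for a value far from the others, 3 held one, and chance gives about 1 in 20. Fam159b in the live sums stood at 69.84 CPM in EP16 (E18.5), with the next experiment at 3.17 CPM. Fam159b in Sst cells stood at 665.8 CPM in EP16, with the next at 255 CPM. Ptprz1 in glucagon cells stood at 12.05 CPM in EP14, with the next of the 4 experiments compared at 1.46 CPM. In EP14 a single glucagon cell held 11.2 Ptprz1 transcripts, together with 49.5 of Hhex.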

How the results depend on the processing

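The 4 companion genes stayed higher in Sst cells, with adjusted p under 0.05, in each of 15 alternatives against the other hormone, glucagon and insulin cells. The limit set by the filter on low counts, given above, holds for the scarce ones here too. The numbers of all genes called moved more. Against other hormone, glucagon and insulin cells they were 136, 195 and 234 with no replicate block, 387, 399 and 532 with DESeq2 and 342, 265 and 430 over the authors' cells. With at least 10 cells per sum, which leaves EP10 and EP16, they were 362 against other hormone and 451 against insulin cells. On MIP-GFP plates alone, which leaves EP14 and EP10, they were 363 against glucagon cells. Leaving out 1 experiment gave 341 to 687, 343 to 592 and 450 to 783.

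For the live slope 1767 genes were called with DESeq2, 254 over the authors' cells, 258 without the P6-coded plate and 8 (without EP16) to 1405 (without EP17) leaving out 1 experiment. For the MIP-GFP slope edgeR called 120 (without EP16) to 1442 on leaving 1 out, DESeq2 called 2799, and with the stages of the titles edgeR called 0, with 218 at an unadjusted p under 0.05.

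Between sorts, the replicate block (6935 genes called) changed the call of Sst, as given above, and of no other of the 5 genes; DESeq2 also called Sst (2.94, adjusted p = 0.017). Ptprz1 between sorts ran from -0.0388 (without EP14) to 0.55 (without EP16). Slopes that changed sign were those of Hhex in live cells without the P6-coded plate (0.0546), and in MIP-GFP cells Hhex over the authors' cells (0.29), Hhex leaving out 1 experiment (-0.26 to 0.43), Ptprz1 leaving out 1 experiment (-0.30 to 0.66), and Rbp4 (0.55) and Fam159b (-0.61) with the stages of the titles. The difference in the share of Sst cells was -0.341 points over the authors' cells, and 5.72 points for cells with any Sst transcript after thinning (exact permutation p = 0.0156). The causes were not tested. Depth limits the values for genes with few transcripts in the 39 Sst cells. Outside the P6-coded live plate, a well's counts for Sst are limited at 1597.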
